A study of Saccharomyces cerevisiae with 29 samples.

Results

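A set of 9 mitotic genes of budding yeast were followed through strand-specific total RNA-seq of W303 cells: the mitotic cyclins CLB1 and CLB2, the transcription factor SWI5, the kinases CDC5, DBF2 and ALK1, the anaphase regulator CDC20, the bud-site protein BUD4 and the kinase inhibitor SIC1. They were chosen by name as G2/M regulators, after their levels in cells without RAD50 or MRE11 had been seen, so those levels are described here with no test. The 9 genes stand among 5798 coding genes, and all 9 passed the filter on low values that 5580 coding genes passed. The data were 17 libraries of MATa RAD5 cells grown in rich medium with 2% glucose at 25 °C. In 15 libraries α-factor at 5 µg/ml had kept the cells in G1 for 170 min: 4 of wild type, 2 each of rad50Δ (rad50::KAN, with a GPD-driven thymidine kinase cassette at URA3), mre11Δ (HIS marker), mre11-H125N, rrp6Δ (rrp6::TRP, with the same cassette as rad50Δ) and xrn1Δ (xrn1::ADE2), and 1 of ku70Δ (HIS marker). In the other 2 libraries, wild-type cells were let go from G1 into S phase with 0.033% methyl methanesulfonate (MMS), a DNA-alkylating agent, for 60 min. The shared W303 background carries ura3, his3-11,15, ade2-1, leu2-3,112, trp1-1 and can1-100. No label says whether libraries of one strain came from separate cultures or clones, so p-values measure the spread between these libraries, which may be technical.

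The B-type cyclins Clb1 and Clb2 bind the kinase Cdc28 and drive cells into mitosis. Their genes belong to the CLB2 cluster, which is switched on in G2 and M by Mcm1, Fkh2 and Ndd1 and holds SWI5, CDC5, CDC20, BUD4, ALK1 and DBF2 as well. The polo kinase Cdc5 and the anaphase-promoting complex with Cdc20 carry the cell through anaphase, and Dbf2 works in the mitotic exit network. Swi5 then enters the nucleus and turns on M/G1 genes, among them SIC1, whose product inhibits Clb-bound Cdc28. Cells in α-factor stop before the start of the cycle, when CLB2-cluster genes are normally weakly transcribed. Rad50 and Mre11 form, with Xrs2, a complex of DNA end processing, and H125N is a change in the nuclease site of Mre11. Rrp6 trims and degrades RNA in the nucleus as part of the exosome, Xrn1 digests cytoplasmic RNA from the 5′ end, and Ku70 belongs to the heterodimer that holds broken ends for joining.

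On build R64, CLB1 (YGR108W) is the open reading frame (ORF) at chromosome 7, 703636 to 705051, and CLB2 (YPR119W) that at chromosome 16, 771653 to 773128. SWI5 (YDR146C) lies at chromosome 4, 748613 to 750742, and CDC5 (YMR001C) at chromosome 13, 269019 to 271136, both on the minus strand. CDC20 (YGL116W) lies at chromosome 7, 289809 to 291641, and BUD4 (YJR092W) at chromosome 10, 598735 to 603078. ALK1 (YGL021W) lies at chromosome 7, 454785 to 457067, DBF2 (YGR092W) at chromosome 7, 668189 to 669907, and SIC1 (YLR079W) at chromosome 12, 286820 to 287674. Chromosome 7 holds 4 of the 9, against 8.92% of all coding genes, and 33728 bases lie between DBF2 and CLB1. CLB1 and CLB2, and DBF2 and DBF20, are pairs of paralogs, and how reads with several alignments were counted is not given in the sources used here.

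Depth over ORF rows ran from 7512010 to 32942688 reads per library. The deleted gene was at or near 0 in each deletion strain: RAD50 at 0 and 2.58 normalized reads, MRE11 at 0 in both libraries, RRP6 at 1.05 and 1.73, XRN1 at 9.84 and 15.8, and YKU70 at 2.99. MRE11 stood at 658 and 679 in mre11-H125N and between 623 and 713 in wild type. The a-cell markers summed to between 40011 and 119829 normalized reads in the G1 libraries and to 3910.2 and 4194 in MMS. In wild type, rad50Δ and mre11Δ the library numbered 1 stood apart from its strain in cell-cycle genes, as described with the results it touches.

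Levels are normalized reads, the deposited read counts scaled by 1 factor per library, and levels of different genes are compared per kilobase of ORF. In wild-type cells in G1, DBF2 had the highest level at 952 ± 95.2 normalized reads per kb (mean ± SD, n = 4). CDC20 followed at 343 ± 22.7, SIC1 at 338 ± 95.5, ALK1 at 268 ± 69.3 and CDC5 at 166 ± 31.5. The lowest were CLB2 at 97.7 ± 22.2, BUD4 at 35.6 ± 7.59, CLB1 at 25.9 ± 7.0 and SWI5 at 19.3 ± 5.82 normalized reads per kb. Along this order the mean ± SD ranges of CDC20, SIC1 and ALK1 overlapped from one to the next, as did those of BUD4, CLB1 and SWI5, while DBF2, CDC5 and CLB2 stood clear of their neighbours.

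**Figure D1:**
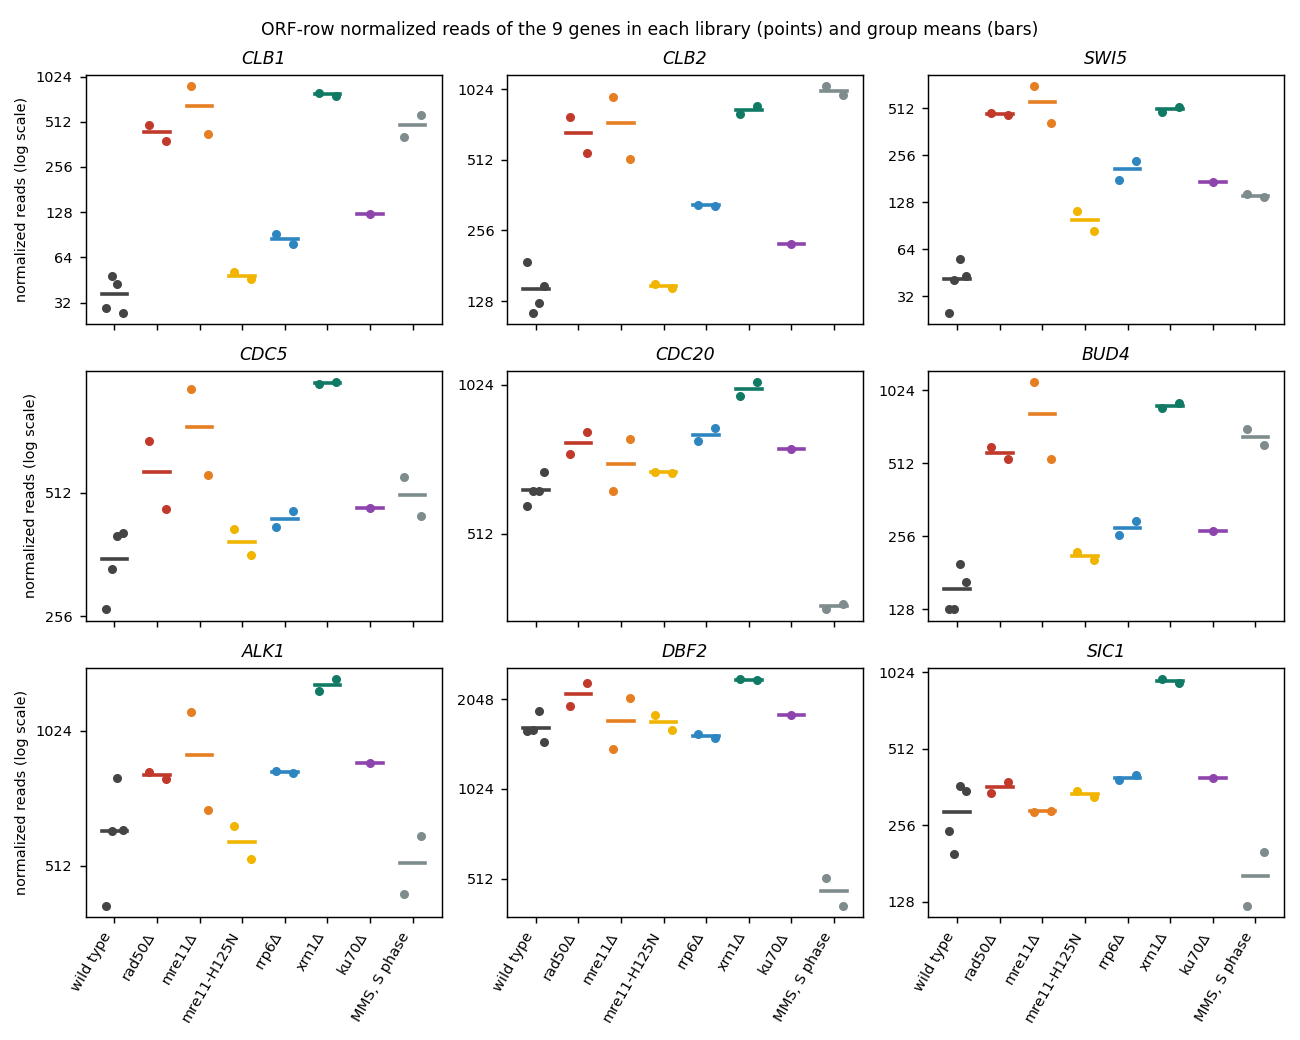
Normalized reads over the ORF (vertical axes, log scale) of the 9 genes in each of 17 libraries (points), with group means as bars. CLB1, SWI5 and BUD4 are lowest in wild type and in mre11-H125N, the xrn1Δ libraries lie above all wild-type libraries for every gene, and DBF2 and CDC20 are lowest in MMS.

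CLB1 stood at 29.3, 47.7, 42.3 and 27.4 normalized reads in wild type. It stood at 487 and 382 in rad50Δ, 887 and 425 in mre11Δ, 795 and 765 in xrn1Δ, and 404 and 565 in MMS. These 4 groups, each overlapping the next in the order of their means, lay far above the rest: CLB1 was at 124.5 in ku70Δ, 91.6 and 78.6 in rrp6Δ, and 50.8 and 45.7 in mre11-H125N, which overlapped wild type. The ratio of means to wild type was 11.8 in rad50Δ and 17.9 in mre11Δ, a log2 difference of 3.56 and 4.07. In the tested comparisons CLB1 rose 21.3-fold in xrn1Δ (log2 4.41 ± 0.29 SE, adjusted p = 5.32e-08), 13.2-fold in MMS (log2 3.71 ± 0.29, adjusted p = 7.91e-07) and 2.32-fold in rrp6Δ (log2 1.23 ± 0.29, adjusted p = 0.00607), all from limma across 16559 rows with Benjamini-Hochberg adjustment. Without the first rrp6Δ library the call in rrp6Δ was lost (adjusted p = 0.0719, the highest over 28 alternatives). The ku70Δ library was 3.40-fold above the wild-type mean (log2 1.77 ± 0.37, adjusted p = 0.0518, or 0.0340 without library 1 of wild type, rad50Δ and mre11Δ).

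CLB2, the main mitotic cyclin, stood less far from wild type than CLB1 in rad50Δ, mre11Δ, xrn1Δ and MMS. Wild type had 188, 114, 125.2 and 149 normalized reads, rad50Δ 779.6 and 546, and mre11Δ 950.2 and 517. The xrn1Δ libraries stood at 799 and 865 and the MMS libraries at 1057 and 962, the highest of all groups. CLB2 in rrp6Δ, at 328 and 327, and in ku70Δ, at 225, lay between these and wild type, while mre11-H125N at 152 and 146 overlapped wild type. The ratio to wild type was 4.60 in rad50Δ and 5.09 in mre11Δ. CLB2 rose 5.77-fold in xrn1Δ (log2 2.55 ± 0.24, adjusted p = 9.49e-07 in limma), 7.01-fold in MMS (log2 2.82 ± 0.24, adjusted p = 1.65e-06) and 2.27-fold in rrp6Δ (log2 1.21 ± 0.24, adjusted p = 0.00192).

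The balance between both cyclins differed between strains. Per kb, CLB2 exceeded CLB1 by 2.30 to 6.17 times in the 4 wild-type libraries. The ratio was 1.37 and 1.54 in rad50Δ, 1.03 and 1.17 in mre11Δ, and 0.964 and 1.08 in xrn1Δ, below every wild-type library. It was 2.87 and 3.06 in mre11-H125N and 3.44 and 3.99 in rrp6Δ, within the wild-type range. The lone ku70Δ library, at 1.73, also lay below every wild-type library, and the MMS libraries, at 2.51 and 1.63, overlapped wild type. No test was run on these ratios.

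**Figure D2:**
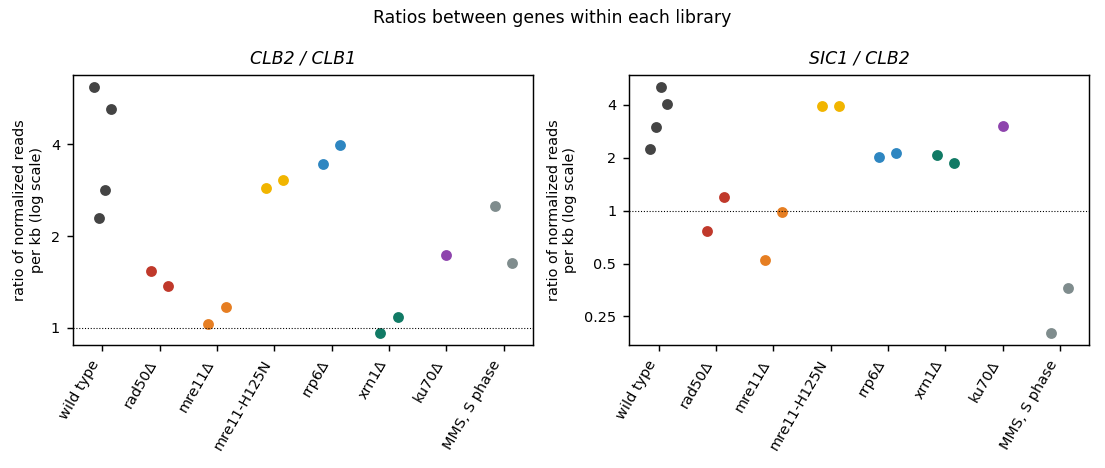
Ratio of normalized reads per kb between genes of the same library (vertical axes, log scale; points are libraries). CLB2 over CLB1 is near 1 in mre11Δ and xrn1Δ and between 2.30 and 6.17 in wild type, and SIC1 over CLB2 is below 1 in both MMS libraries and above 2 in all wild-type libraries.

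SWI5, whose protein activates genes of the M/G1 boundary, stood at 25.1, 40.9, 55.3 and 43.0 normalized reads in wild type. It was at 477 and 465 in rad50Δ, 714 and 410.5 in mre11Δ, and 487 and 525 in xrn1Δ. The remaining groups also lay above wild type without overlap: 179 and 237 in rrp6Δ, 172 in ku70Δ, 145 and 137 in MMS, and 113 and 84.1 in mre11-H125N. SWI5 was thus the 1 gene of the 9 that passed the test in every comparison with wild type that was tested. The ratio to wild type was 11.5 in rad50Δ and 13.7 in mre11Δ. It rose 12.3-fold in xrn1Δ (log2 3.64 ± 0.28, adjusted p = 1.78e-07 in limma) and 5.07-fold in rrp6Δ (log2 2.35 ± 0.28, adjusted p = 3.87e-05). It rose 3.44-fold in MMS (log2 1.81 ± 0.28, adjusted p = 2.38e-04) and 4.20-fold in ku70Δ (log2 2.10 ± 0.36, adjusted p = 0.0180), a call lost when the fit held only wild type and ku70Δ (adjusted p = 0.161). The rise in mre11-H125N, 2.40-fold (log2 1.28 ± 0.28, adjusted p = 0.0456), was lost in 13 of 28 alternatives, with adjusted p up to 0.530. Among these were leaving out wild type 1 or 4, the first mre11-H125N library, or either library of rad50Δ, rrp6Δ, xrn1Δ or MMS.

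CDC5, the polo kinase, had 266, 333, 402 and 408 normalized reads in wild type, 684 and 466 in rad50Δ and 914 and 566 in mre11Δ. The levels in xrn1Δ, 939.9 and 949.7, were the highest. The remaining libraries stood between 360.2 and 560.1, at 416 and 360.2 in mre11-H125N, 421 and 460.4 in rrp6Δ, 469 in ku70Δ and 560.1 and 449 in MMS. All but mre11-H125N lay above every wild-type library, by small margins. The ratio to wild type was 1.63 in rad50Δ and 2.10 in mre11Δ, and CDC5 rose 2.68-fold in xrn1Δ (log2 1.44 ± 0.22, adjusted p = 7.70e-05 in limma). In MMS the difference did not pass (log2 0.53 ± 0.22, adjusted p = 0.0704), but did in DESeq2 (adjusted p = 0.0465) and without library 1 of wild type, rad50Δ and mre11Δ (adjusted p = 0.0327). In rrp6Δ it did not pass (log2 0.34 ± 0.22, adjusted p = 0.276).

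CDC20, the activator that directs the anaphase-promoting complex to its anaphase substrates, kept to a narrower range. Wild type had 582, 624, 624 and 684 normalized reads, and rad50Δ had 741 and 822. In mre11Δ, at 625 and 794, and mre11-H125N, at 684 and 679, the libraries overlapped wild type. Levels were 788 and 838 in rrp6Δ, 760.2 in ku70Δ, 972 and 1036 in xrn1Δ, and 360.4 and 369.8 in MMS, the 1 group below wild type. The ratio to wild type was 1.24 in rad50Δ and 1.13 in mre11Δ. CDC20 rose 1.60-fold in xrn1Δ (log2 0.68 ± 0.11, adjusted p = 1.66e-04 in limma) and fell to 0.581 of the wild-type mean in MMS (log2 -0.78 ± 0.11, adjusted p = 1.48e-04). Its rise in rrp6Δ (1.29-fold, log2 0.37 ± 0.11, adjusted p = 0.0257) was lost in 6 of 28 alternatives, among them edgeR, DESeq2, TMM scaling and leaving out either rrp6Δ library, with adjusted p up to 0.337.

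BUD4, which marks the site of the next bud at the old division site, had 128, 128, 196 and 166 normalized reads in wild type. It had 599 and 532 in rad50Δ, 1106 and 533 in mre11Δ, 868 and 905 in xrn1Δ, and 708 and 609 in MMS. The rrp6Δ libraries at 259 and 295, ku70Δ at 269 and mre11-H125N at 219 and 205 lay closer to wild type but also above all of its libraries. The ratio to wild type was 3.66 in rad50Δ and 5.30 in mre11Δ. BUD4 rose 5.73-fold in xrn1Δ (log2 2.53 ± 0.24, adjusted p = 1.26e-06 in limma) and 4.26-fold in MMS (log2 2.10 ± 0.24, adjusted p = 2.64e-05). Its 1.79-fold rise in rrp6Δ (log2 0.86 ± 0.24, adjusted p = 0.0180) was lost with TMM scaling and without either rrp6Δ library, with adjusted p up to 0.140.

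ALK1, a haspin-like kinase, had 417, 610.5, 804 and 614 normalized reads in wild type, a spread that covered several other groups. It had 827 and 801 in rad50Δ and 1130.1 and 680.0 in mre11Δ, with 1 library of each inside the wild-type range. Levels were 628 and 530.3 in mre11-H125N, 834 and 826 in rrp6Δ, 869 in ku70Δ, 1255 and 1338 in xrn1Δ, and 443 and 595 in MMS. With all libraries the xrn1Δ rise was the 1 difference of ALK1 that passed, 2.12-fold (log2 1.12 ± 0.24, adjusted p = 0.00101 in limma). In MMS the 95% interval of the log2 difference, -0.72 to 0.29, included 0.

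DBF2, the kinase of the mitotic exit network, had 1605, 1608, 1862 and 1470.4 normalized reads in wild type and 1942 and 2315 in rad50Δ. The 2 mre11Δ libraries, at 1397 and 2067, lay below and above all of wild type. Levels were 1807 and 1615 in mre11-H125N, 1559.9 and 1512 in rrp6Δ, 1811 in ku70Δ, 2396 and 2369.7 in xrn1Δ, and 512 and 415 in MMS. The MMS libraries were thus well below every other library. DBF2 fell to 0.283 of the wild-type mean in MMS (log2 -1.82 ± 0.15, adjusted p = 1.63e-06 in limma), the largest fall of the 9 genes in that comparison, and rose 1.46-fold in xrn1Δ (log2 0.55 ± 0.15, adjusted p = 0.00668).

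SIC1, the inhibitor of Clb-bound Cdc28 and a target of Swi5, had 244, 198, 367 and 349 normalized reads in wild type. It had 345 and 378 in rad50Δ, 289 and 292 in mre11Δ, and 348 and 329.7 in mre11-H125N, all of which overlapped wild type. Levels were 385 and 403 in rrp6Δ, 393 in ku70Δ, 964 and 933 in xrn1Δ, and 124 and 201 in MMS. The ratio to wild type was 1.25 in rad50Δ and 1.00 in mre11Δ, beside ratios of 11.5 and 13.7 for SWI5, its activator. SIC1 rose 3.28-fold in xrn1Δ (log2 1.75 ± 0.23, adjusted p = 2.38e-05 in limma). Its fall in MMS, to 0.561 of wild type (log2 -0.83 ± 0.23, adjusted p = 0.0127), was lost in 3 alternatives, with adjusted p up to 0.227, among them leaving out the first MMS library and fitting only the groups compared. Per kb, SIC1 RNA exceeded CLB2 RNA by 2.24 to 5.06 times in wild type. The ratio was lower in rrp6Δ, at 2.02 and 2.13, and in xrn1Δ, at 2.08 and 1.86. SIC1 RNA was below CLB2 RNA in MMS, at 0.202 and 0.361, and in both mre11Δ libraries, at 0.525 and 0.976. It was also below in the first rad50Δ library, at 0.763, but not in the other, at 1.196. These are RNA ratios, and the proteins were not measured here.

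**Figure D3:**
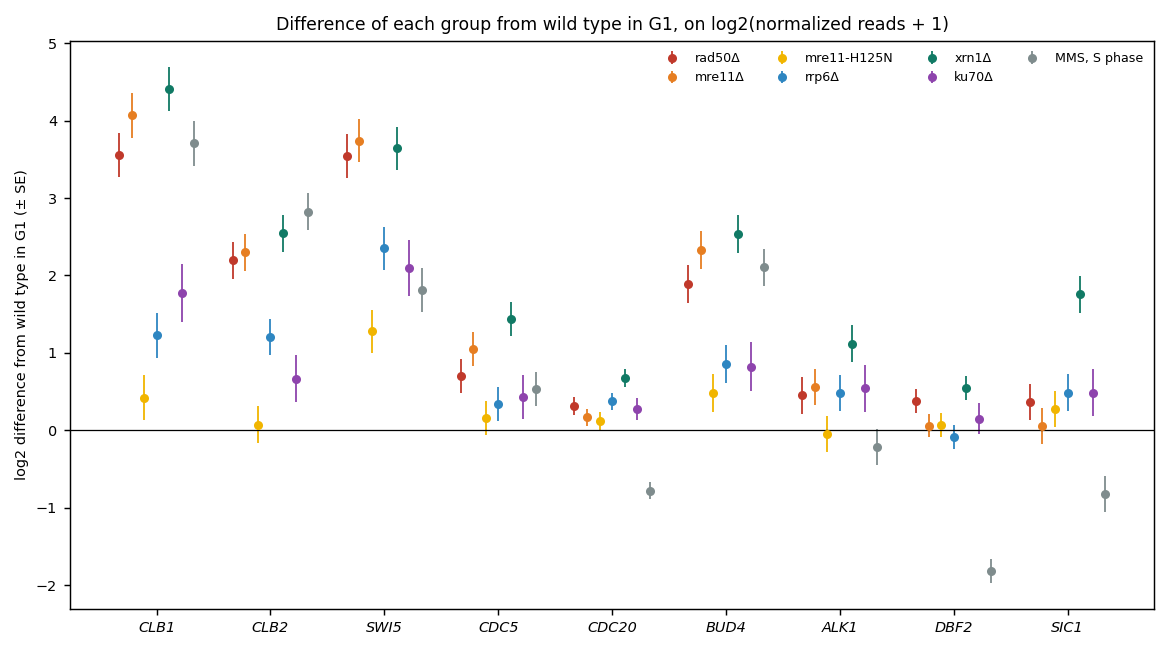
Log2 difference from wild type in G1 of each gene in each group (points, limma estimate on log2 of normalized reads plus 1; bars, standard error). CLB1, SWI5, CLB2 and BUD4 hold the largest positive differences in rad50Δ, mre11Δ, xrn1Δ and MMS, and CDC20, DBF2 and SIC1 lie below 0 in MMS.

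In rad50Δ, 7 of the 9 genes were higher in both libraries than in any wild-type library, a pattern that 21.3% of coding genes showed, and the ratio was at least 2 for CLB1, CLB2, SWI5 and BUD4, against 5.77% of coding genes. In mre11Δ, 5 of 9 were higher in both libraries, against 17.5%, and the same 4 genes and CDC5 reached a ratio of 2, against 6.76%. The members were chosen with these contrasts known, so nothing is read from those counts. The median log2 difference of the 9 was 0.70 in rad50Δ and 1.05 in mre11Δ, and that of all coding genes -0.0072 and -0.016.

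Libraries of the same strain differed in cell-cycle genes. Relative to the mean of wild type, the median over 24 G1/S genes was 1.495 log2 in wild type 1 and -0.52, -0.41 and -0.49 in the other wild-type libraries. It was 0.98 and 0.17 in rad50Δ, 2.21 and 0.30 in mre11Δ, and 1.86 and 2.00 in MMS. The median of 22 pheromone response genes ran the other way, at -1.09 in wild type 1 and 0.20 to 0.45 in the others, -0.97 and 0.22 in rad50Δ, -2.08 and 0.11 in mre11Δ, and -3.83 and -3.54 in MMS. Core histone genes stood at 2.41 and 0.36 in mre11Δ. In rad50Δ and in mre11Δ the number 1 library was the higher one for CLB1, CLB2, SWI5, CDC5, BUD4 and ALK1. It was the lower one for CDC20, DBF2 and SIC1. Wild type 1 was instead the lowest wild-type library for SWI5, CDC5, CDC20 and ALK1, though the highest for CLB2. The median of the 9 genes was -0.24 in wild type 1 and -0.020, 0.24 and 0.12 in the other wild-type libraries. With library 1 of these 3 strains left out, the log2 difference of CLB1 was 3.29 in rad50Δ and 3.44 in mre11Δ, that of SWI5 3.31 and 3.13, that of CLB2 2.08 and 2.00, and that of BUD4 1.72 in both. CDC5 was at 0.30 and 0.58, and ALK1 at 0.26 and 0.020. The median log2 difference of the 24 G1/S genes was then 0.59 in rad50Δ and 0.74 in mre11Δ, against 0.55 and 1.18 with all libraries. The share of all coding genes that passed without library 1 was not counted. Later counts of that setting thus have no share beside them, and nothing particular to a list is read from them. The part of G1/S and histone genes in the mitotic genes' levels was not tested. In bulk RNA, a share of cells that left G1 and a higher level in every cell cannot be told apart.

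**Figure D4:**
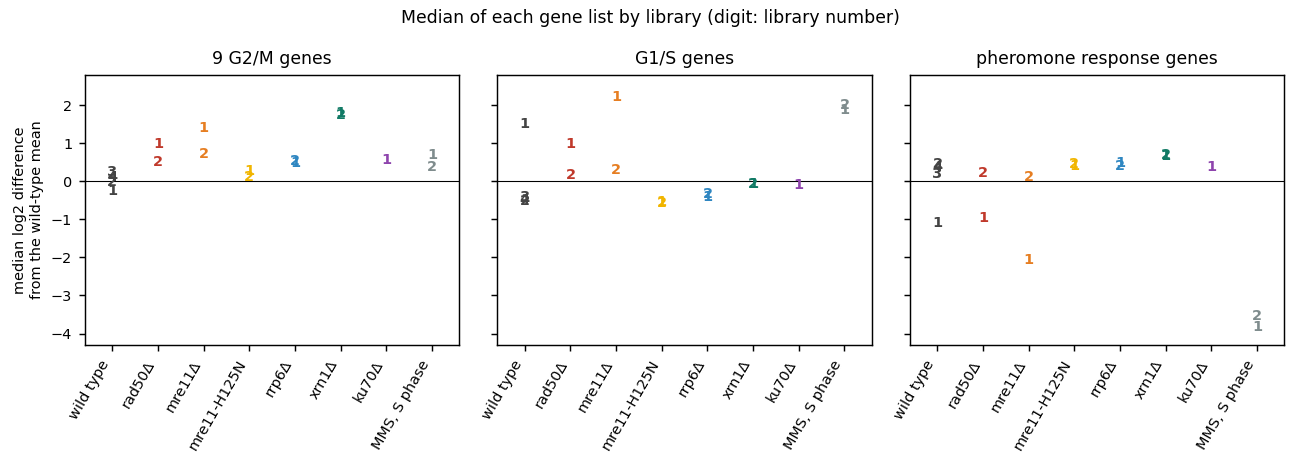
Median log2 difference from the wild-type mean (vertical axis) of the 9 genes, the G1/S genes and the pheromone response genes in each library; digits are library numbers. Library 1 of wild type, of rad50Δ and of mre11Δ lies above the others of its strain for G1/S genes and below them for pheromone genes.

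The gene lists here and below were written with earlier results of these data known. Their counts in rad50Δ and mre11Δ are thus no separate support for the levels of the 9 genes. Among 15 other genes of the CLB2 cluster, 9 rose in rad50Δ, against 12.8% of coding genes, and TEM1, the GTPase of the mitotic exit network, fell, against 12.1%. The median was 0.64, or 0.48 with 8 risen once library 1 of the 3 strains was left out. KIN3, a mitotic kinase, rose 3.70-fold (log2 1.89 ± 0.18, adjusted p = 2.86e-05 in limma), and IQG1 of the cytokinetic ring rose 2.03-fold (log2 1.02 ± 0.10, adjusted p = 3.65e-05). In mre11Δ, 8 of 15 rose, against 12.1% of coding genes, and TEM1 fell, against 11.9%. The median there was 0.96, or 0.52, again with 8 risen but 0 fallen, once library 1 was left out. KIN3 rose 5.87-fold there (log2 2.53 ± 0.18, adjusted p = 2.75e-06), and CHS2, the chitin synthase of the primary septum, 3.11-fold (log2 1.62 ± 0.16, adjusted p = 4.89e-05).

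Among 16 M/G1 genes, with Swi5 targets among them, 10 rose in rad50Δ and 10 in mre11Δ, with medians of 1.92 and 1.70 log2. Leaving out library 1 gave 10 in each again. Beside the lists of this paragraph, 12.8% of coding genes rose in rad50Δ and 12.1% in mre11Δ, and 12.1% and 11.9% fell. EGT2, of daughter-cell separation, rose 21.5-fold in rad50Δ (log2 4.43 ± 0.16, adjusted p = 2.79e-09) and 19.2-fold in mre11Δ (log2 4.26 ± 0.16, adjusted p = 3.46e-09), and DSE4, a glucanase of the same process, 16.1-fold and 11.7-fold. Of the other cyclins and Cdc28 regulators, 1 of 14 rose in rad50Δ, below the share of coding genes, and 4 in mre11Δ. Once library 1 of wild type and both deletions was left out, 5 rose in each. The G1 cyclin CLN3 rose in both, by 0.92 ± 0.17 log2 in rad50Δ (adjusted p = 0.00307) and by 1.79 ± 0.17 in mre11Δ (adjusted p = 2.78e-05). The 6 activators and repressors of G2/M transcription gave 0 calls in rad50Δ in limma, where 2 had an unadjusted p under 0.05, and 0 in edgeR and DESeq2, but 2 rose once library 1 was left out. In mre11Δ 2 of 6 rose, NDD1 (2.83-fold, log2 1.38 ± 0.27, adjusted p = 0.00418, lost in 2 of 28 alternatives) and YHP1, whose libraries overlapped wild type and whose call (adjusted p = 0.0352) was lost in 12 of 28 alternatives. Of 24 genes of the anaphase-promoting complex and spindle checkpoint, 2 rose in each deletion, below the share of coding genes in both. The list medians were -0.014 and 0.085, and the large subunit gene APC1 was among the risen genes in both. Without library 1 the count was 2 in rad50Δ and 0 in mre11Δ, where both calls were lost. In the mitotic exit network 2 of 11 rose and 2 fell in rad50Δ, and 3 rose and 1 fell in mre11Δ. Without library 1, 1 rose and 1 fell in rad50Δ, and 2 rose and 0 fell in mre11Δ. TEM1, MOB1, NUD1 and SPO12 are in this list and among the other cluster genes, so their calls count in both. The cyclin list shares CLN1, CLN2, CLB5 and CLB6 with the G1/S genes and FAR1 with the pheromone genes. YOX1 is both a G1/S gene and a regulator of G2/M transcription in these lists. CDC15, the kinase upstream of Dbf2, rose by 0.63 ± 0.12 log2 in rad50Δ (adjusted p = 0.00404, lost in 2 of 28 alternatives) and by 1.12 ± 0.12 in mre11Δ (adjusted p = 7.43e-05).

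Of the α-cell markers, which a cells normally lack, 2 of 3 tested rose in rad50Δ and 2 in mre11Δ. Of coding genes, 12.8% and 12.1% rose there. The summed level of all 4 was between 291 and 419.6 normalized reads in wild type, 3706 and 4880.2 in rad50Δ, and 1767 and 3351 in mre11Δ, nearly all of it from the α-agglutinin SAG1. MF(ALPHA)1, the main gene of the α pheromone, stood between 0 and 4.07 in wild type, at 12.9 and 15.5 in rad50Δ, and at 2.43 and 16.3 in mre11Δ. The summed level was also above wild type in the other mutants, at 816 and 869 in mre11-H125N, 857 and 884 in rrp6Δ, 1717 and 1728 in xrn1Δ and 1487 in ku70Δ, but not in MMS, at 234 and 263. The other markers did not all follow this sum. In xrn1Δ 1 marker rose and 1 fell, and the mean of MF(ALPHA)2 was 0.519 normalized reads there, against 10.8 in wild type. STE3 stood between 11.9 and 22.0 in wild type and at 12.9 and 47.8 in rad50Δ, which overlapped. The part of the α-cell markers in the levels of the mitotic genes was not tested.

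In mre11-H125N, 1 of the 9 genes rose, SWI5, where 1.04% of coding genes rose. CLB2 had a log2 difference of 0.072 (95% interval -0.44 to 0.58) and CLB1 of 0.42 (-0.20 to 1.04). Among the M/G1 genes 3 of 16 rose in limma, 2 in edgeR and 5 in DESeq2. EGT2 rose 4.27-fold (log2 2.10 ± 0.16, adjusted p = 2.54e-05 in limma) and DSE4 2.60-fold (log2 1.39 ± 0.17, adjusted p = 0.00103, lost in 1 of 28 alternatives). In the other cluster genes limma made 0 calls of 15, with 5 higher and 2 lower at an unadjusted p under 0.05, edgeR made 0, and DESeq2 called 2 higher and 1 lower. Limma also made 0 calls among the 14 cyclins and Cdc28 regulators, 1 of them at an unadjusted p under 0.05, with 0 in edgeR and DESeq2.

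In rrp6Δ, 5 of the 9 genes rose (SWI5, CLB1, CLB2, CDC20 and BUD4), where 8.64% of coding genes rose. The rise of CLB2 and SWI5 held in all 28 alternatives. TMM scaling, which moved the median of all coding genes by -0.23 log2 in this strain, left 3, and leaving out the first or the other rrp6Δ library left 2 and 3. The G1/S and pheromone medians were at -0.43 and -0.34, and at 0.40 and 0.48, close to wild-type libraries 2 to 4. Of the M/G1 genes 9 of 16 rose, at a median of 1.49, with EGT2 up 7.47-fold (log2 2.90 ± 0.16, adjusted p = 1.22e-07) and DSE4 5.57-fold (log2 2.48 ± 0.17, adjusted p = 4.62e-07). Of the other cluster genes 3 of 15 rose, or 5 without library 1 of wild type, rad50Δ and mre11Δ, and HOF1 of cytokinesis was among the 3 (2.94-fold, log2 1.56 ± 0.41, adjusted p = 0.0123, lost in 2 of 28 alternatives). Among the cyclins and regulators HSL1, a kinase that restrains Swe1, rose 4.58-fold (log2 2.19 ± 0.30, adjusted p = 1.76e-04), and CDC28 itself fell to 0.767 of wild type (log2 -0.37 ± 0.12, adjusted p = 0.0284, lost in 5 alternatives). FKH2, the forkhead partner of Ndd1, and the anaphase-promoting complex genes DOC1 and CDC16 rose 1.46-fold, 1.46-fold and 1.21-fold, calls lost in 19, 5 and 9 alternatives.

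All 9 genes rose in xrn1Δ, with all libraries and in all 28 alternatives, with ratios from 1.46 to 21.3 and a median log2 difference of 1.75. In that strain 35.1% of coding genes rose and 32.8% fell, and the median of all coding genes was 0.064. Total RNA levels are relative, so these values place the 9 genes against the other genes of the same library. Among the other CLB2-cluster genes 11 of 15 rose, at a median of 0.83. IQG1 rose 2.84-fold (log2 1.504 ± 0.10, adjusted p = 6.63e-08 in limma). Of the M/G1 genes 12 of 16 rose, at a median of 2.81, led by EGT2 at 43.5-fold (log2 5.44 ± 0.16, adjusted p = 1.97e-11). In the anaphase-promoting complex and checkpoint list 15 of 24 rose and 1 fell, with CDC27 up 2.36-fold (log2 1.24 ± 0.11, adjusted p = 4.12e-07) and CDH1, the G1 counterpart of CDC20, up 1.91-fold (log2 0.94 ± 0.11, adjusted p = 5.40e-06). CDC28 fell to 0.675 of wild type (log2 -0.56 ± 0.12, adjusted p = 9.64e-04), while 4 of the 14 cyclins and regulators rose, or 10 once library 1 of wild type, rad50Δ and mre11Δ was left out. With all libraries, that count of 4 was below the share of coding genes that rose. In the mitotic exit network 4 of 11 rose, near that share, DBF20 and SPO12 among them. CDC14 and its anchor NET1 fell, fewer than the share of coding genes that fell. FKH2 rose 2.45-fold (log2 1.31 ± 0.19, adjusted p = 6.19e-05) and NDD1 2.08-fold (log2 1.07 ± 0.27, adjusted p = 0.00350).

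In ku70Δ, where the lone library was taken to vary as the replicated groups do, SWI5 was the 1 gene of 9 that rose, where 0.430% of coding genes rose. Of the 9, 8 lay above all wild-type libraries, which 24.0% of coding genes did, and 4 had an unadjusted p under 0.05. Of the M/G1 genes 2 of 16 rose, DSE4 (3.92-fold, log2 1.99 ± 0.21, adjusted p = 3.79e-04 in limma) and EGT2 (3.74-fold, log2 1.91 ± 0.21, adjusted p = 4.93e-04), each lost in 1 alternative.

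The S-phase MMS libraries split the set. CLB1, CLB2, SWI5 and BUD4 rose, CDC20, DBF2 and SIC1 fell, and CDC5 and ALK1 did not pass, where 23.5% of coding genes rose and 23.5% fell. The comparison changes cell-cycle phase, α-factor and MMS together, and these cannot be told apart. Of the other cluster genes 5 of 15 rose and 5 fell, each somewhat above the share of coding genes, which went both ways too. BUD3, a partner of Bud4, rose 2.03-fold (log2 1.02 ± 0.15, adjusted p = 1.80e-04), while SPO12 of mitotic exit fell to 0.107 of wild type (log2 -3.22 ± 0.22, adjusted p = 2.57e-07). SWI5 rose but 10 of the 16 M/G1 genes fell, with a median of -1.004. The chitinase CTS1 fell to 0.186 (log2 -2.33 ± 0.34, adjusted p = 2.53e-04) and ASH1, the repressor of HO, to 0.169 (log2 -2.39 ± 0.35, adjusted p = 2.29e-04). Among the regulators of G2/M transcription 4 of 6 rose, NDD1 by 2.64-fold (log2 1.404 ± 0.27, adjusted p = 0.00107). In the other lists 11 of 24 genes of the anaphase-promoting complex and checkpoint rose, 12 of 24 G1/S genes and 7 of 8 core histone genes rose, and all 22 pheromone genes fell. The G1/S count was 8 in edgeR and in DESeq2, and 23 once library 1 of wild type, rad50Δ and mre11Δ was left out. The pheromone response gene FAR1 fell to 0.0619 of wild type (log2 -3.95 ± 0.46, adjusted p = 5.36e-05). SWE1, the kinase that inhibits Clb-bound Cdc28, rose 4.48-fold (log2 2.33 ± 0.61, adjusted p = 0.00979, lost in 1 alternative).

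Noncoding rows beside the 9 genes were read on both strands. XUTs are Xrn1-sensitive unstable transcripts, CUTs are cryptic unstable transcripts that the nuclear exosome removes, and divergent rows bear that name in the deposited table. Of 18 such rows that overlap a member on the other strand or reach into the 500 bases upstream, 11 passed the filter: 5 XUT, 3 CUT and 3 divergent rows. In rrp6Δ 7 of the 11 rose, where 60.2% of XUT and 85.5% of CUT rows rose. The share of divergent rows is not given here. Some of the 11 rows share reads, as given below, so nothing particular to these genes is read from the count. CUT508 (chromosome 4, 750915 to 751347, minus strand) lies just upstream of SWI5 on its strand and went from between 7.32 and 16.4 normalized reads in wild type to 120.1 and 129 in rrp6Δ (log2 3.23 ± 0.47, adjusted p = 1.77e-04 in limma). XUT1073 lies within it and shares its reads. In MMS 5 of the 11 rows fell, where 24.4% of XUT rows, 129 of 760 CUT rows and 18.0% of divergent rows fell. CUT508 was among them (log2 -1.29 ± 0.47, adjusted p = 0.0412), and in rad50Δ and mre11Δ it gave no call.

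XUT1247 and CUT612, which overlap each other upstream of DBF2 on the other strand (CUT612 at chromosome 7, 667339 to 667803), share their reads. CUT612 rose from 36.1 to 308 normalized reads in rrp6Δ (log2 3.06 ± 0.23, adjusted p = 1.27e-06), fell to 7.39 in xrn1Δ (log2 -2.15 ± 0.23, adjusted p = 3.26e-06) and fell to 10.7 in MMS (log2 -1.68 ± 0.23, adjusted p = 9.34e-05). In xrn1Δ, 3 rows rose, where 48.7% of XUT and 28.5% of divergent rows rose, and these 2 fell, where 10.4% of XUT and 28.0% of CUT rows fell. The XUT1395 row, antisense to the start of BUD4 over 878 bases, rose from 22.2 to 73.8 (log2 1.72 ± 0.27, adjusted p = 1.10e-04), and XUT1229, antisense to ALK1 over 465 bases, from 74.2 to 271 (log2 1.93 ± 0.31, adjusted p = 1.18e-04). Both sense genes rose in the same strain. In mre11Δ XUT1229 fell from 74.2 to 25.4 (log2 -1.43 ± 0.31, adjusted p = 0.00762), where 4.42% of XUT rows fell. In rad50Δ the row divergent_378 over the start of SIC1 fell (log2 -0.47 ± 0.16, adjusted p = 0.0464), where 5.76% of divergent rows fell. The 7 rows beside CLB1, CLB2, CDC20, CDC5 and BUD4 that were below the filter were all divergent rows.

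**Figure D5:**
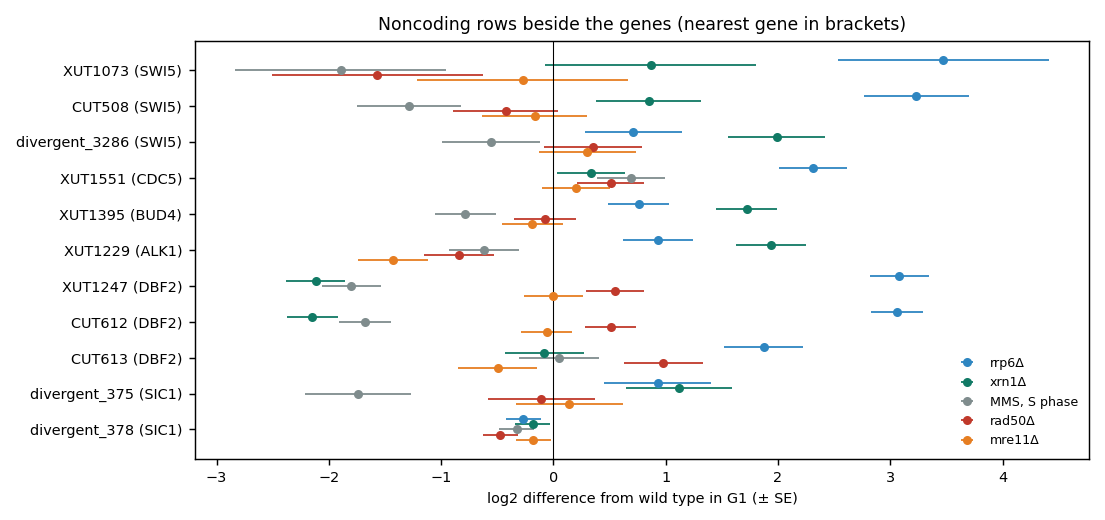
Log2 difference from wild type in G1 (horizontal axis; points, limma estimate; bars, standard error) of the 11 noncoding rows tested beside the 9 genes, in 5 comparisons. The XUT and CUT rows beside SWI5, CDC5 and DBF2 are highest in rrp6Δ, and those antisense to BUD4 and ALK1 are highest in xrn1Δ.

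Likeness of profiles was measured as the root-mean-square difference between centred log2 values over the 17 libraries, where 0 is an identical profile. Within the set CDC5 and ALK1 were nearest at 0.326, then CDC20 and ALK1 at 0.342, CDC20 and DBF2 at 0.356, and CLB2 and BUD4 at 0.381. CLB1 and CLB2 differed by 0.792, and CLB1 and DBF2 were farthest apart at 1.97. Among the other coding genes ISR1, a predicted kinase, was nearest to the mean of the 9 at 0.263, and others near it were MIC14 at 0.278, MCH2 at 0.300 and BIO3 at 0.302, where the median of all coding genes was 0.807. The nearest to CLB1 was IRC8 at 0.755, to CLB2 AIM20 at 0.418, and to SWI5 the meiotic RNA-binding gene RIM4 at 0.510. CDC20 had its nearest gene in PIN2 at 0.134, DBF2 in the uridine permease gene FUI1 at 0.232, and SIC1 in AXL1 at 0.278, a protease of a-factor maturation.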

How the data were processed

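Total RNA from 17 libraries was used, and the other 12 samples of the series were not analysed here. STAR 2.5.3, SAMtools 0.1.19, DESeq2 and build R64 are named in the submitters' processing notes, and the counting program is not given in the sources used here. The authors deposited a signal: per row, a read count over a size factor of the library. Values were whole multiples of a step, to within 0.02, in all 17 libraries, and whole reads were taken back in 16. The ku70Δ library, whose step lay within 1 percent of 1, was left out of the whole reads by choice. The authors' 8 columns of group means and 25 columns of density, another unit, were not used.

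Libraries were grouped by genotype and treatment. Limma 3.58.1 in R 4.3.3 (empirical Bayes, trend and robust settings) was run on log2 of the deposited values plus 1, over 17 libraries in 8 groups with 9 residual degrees of freedom, for the 16559 rows with a mean of at least 10. Benjamini-Hochberg adjustment ran over those rows with a threshold of 0.05, and "rose" and "fell" mean that this was passed. The comparisons share the wild-type libraries. A planned test between rad50Δ and mre11Δ is not used, since the 9 genes were chosen with both strains' levels known. The 9 genes, the gene lists and the tests were chosen with earlier results of these data known.

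Named genes are the 9 members, up to 2 per direction with the smallest adjusted p from each list and comparison, the nearest profiles, and the noncoding rows. Others were named, after their values were seen, to spell out a count. The alternatives changed the pseudocount (0.5 or 8), the filter (none, or a mean of 50), the scaling (TMM or median of ratios), the tool (edgeR 4.0.16 or DESeq2 1.42.0 on whole reads), the groups fitted, a block for the replicate number, and the libraries left out. The fit was also run on simulated libraries, drawn independently with a fixed spread. Those lacked the shared shift of the number 1 libraries, so they do not vouch for the calls in these data.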

Additional observations from a re-analysis of the deposited data

Results flagged for a closer look

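In the 4 wild-type libraries in G1, 4 of 20 list and gene medians tested had 1 library far from the others by Dixon's test; chance sets off about 1 in 20. The first wild-type library was the highest for G1/S genes, at a median of 1.495 log2 relative to the mean of the 4, and the lowest for pheromone response genes, at -1.09. One library was also lowest for the activators and repressors of G2/M transcription, at -0.26, and 1 for the mitotic exit network, at -0.11. The 9 mitotic genes themselves gave no such library in wild type.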

How the results depend on the processing

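The xrn1Δ count stayed at 9 of 9 genes in all 28 alternatives. In mre11-H125N the count of 1 became 0 with no filter and 0 with only the groups compared, and was 0 to 1 with single libraries left out. In rrp6Δ the count of 5 became 3 with TMM factors and was 2 to 5 with single libraries left out. In ku70Δ the count of 1 became 0 with only the groups compared and 2 without the number 1 libraries, and was 1 to 2 with single libraries left out. The MMS count of 7 was 6 to 8. The median log2 difference of the 9 genes was 0.51 to 0.98 in rad50Δ and 0.70 to 1.39 in mre11Δ with single libraries left out, and 0.58 in mre11Δ without the number 1 libraries. The cause was not tested.

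Replicate numbers were also used as a block. Deviations of same-numbered libraries correlated at 0.67 and 0.47 between rad50Δ and wild type, 0.60 and 0.44 between mre11Δ and wild type, 0.69 between both deletions, and between -0.31 and 0.05 for the others. The labels give no more than a number, so the libraries are not taken as paired. With the block, counts were 1 in mre11-H125N, 7 in rrp6Δ, 9 in xrn1Δ, 2 in ku70Δ and 7 in MMS. In rrp6Δ ALK1 (adjusted p = 0.0480) and SIC1 (adjusted p = 0.00920) then passed too, as did CLB1 in ku70Δ (adjusted p = 0.0493) and CDC5 in MMS (adjusted p = 0.0236), while SIC1 in MMS did not (adjusted p = 0.0911).

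Some small differences without a call changed sign. SIC1 in mre11Δ was at -0.018 with DESeq2, -0.0114 with edgeR and -0.0083 without the number 1 libraries. ALK1 with the block was at 0.19 in mre11-H125N and 0.026 in MMS. With single libraries left out, the range in mre11Δ was -0.0066 to 0.34 for CDC20, -0.22 to 0.34 for DBF2 and -0.12 to 0.18 for SIC1. In mre11-H125N it was -0.030 to 0.21 for CLB2, -0.22 to 0.10 for ALK1 and -0.014 to 0.15 for DBF2. The ku70Δ library has no edgeR or DESeq2 value.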
